A study of Equus caballus with 16 samples.

Results

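The comparison set the extracellular vesicles of follicular fluid (FF-EVs) of ovulatory follicles in spring (SOV), collected in April and May when mares have resumed cycling, against those of ovulatory follicles in fall (FOV), collected in September before ovulation ceases for the winter. Small RNA was sequenced from vesicles that were pelleted from the fluid of follicles measuring 30 to 35 mm in mares of 8 to 14 years, with no treatment other than the season and the ablation of earlier follicles, which all seasons shared. Each season had 4 libraries, and each library combined the fluids of 2 to 3 mares, some of which recur in other seasons, so that the libraries are not fully independent. Libraries SOV_1 to SOV_4 were compared with FOV_2, FOV_3 and FOV_4. FOV_1 was left out of the tests, as in the study, which excluded it because its profile lay close to that of the spring anovulatory season (SAN). That choice rested on the measured profile, and the values of FOV_1 are given beside the called miRNAs, the called ratios and the measures of composition, and beside part of the other results. The miRNAs followed were the 257 with a mean above 10 CPM (read counts scaled to library size, after the authors' TMM adjustment) in SOV or FOV, of 282 above that level in at least 1 of the 4 seasons and 686 listed. Of the 257, 220 were above the level in both seasons, 8 in SOV alone and 29 in FOV alone. Just inside it lay miR-671-5p at 10.5 CPM and miR-491-5p at 10.6 CPM in SOV, and just outside lay miR-503 at 9.67 CPM in SOV and miR-655 at 9.65 CPM in FOV, each from only 2 or 3 reads in its season.

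A miRNA is a short RNA that pairs with messenger RNAs chiefly through its seed, bases 2 to 8 from the 5′ end, and lowers their translation or stability, so that miRNAs with the same seed can bind many of the same sites. Vesicles in follicular fluid carry miRNAs released by granulosa and theca cells, the oocyte's surroundings and the blood that supplies the follicle, and they can be taken up by other follicular cells. A mature miRNA in such vesicles therefore reports what was loaded and retained, which need not follow its level in the cells.

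The miRNAs on which the comparison turned are printed 5′ to 3′ from the study's own list of equine miRNAs, with T in place of U and the seed in capitals, because their shared seeds define the pairs compared within libraries. All 257 miRNAs followed had a sequence in that list. 5 of them share the first seed and differ after it.
miR-92a: tATTGCACttgtcccggcctgt
miR-25: cATTGCACttgtctcggtctga
miR-363: aATTGCACggtatccatctgta
miR-32: tATTGCACattactaagttgca
miR-92b: tATTGCACtcgtcccggcctcc
Counted from the 5′ end, miR-27a carries the substitution T19C relative to miR-27b, outside the seed, and the sequences are otherwise the same.
miR-27a: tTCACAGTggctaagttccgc
miR-27b: tTCACAGTggctaagttctgc
Likewise miR-100 carries T16A relative to miR-99a.
miR-99a: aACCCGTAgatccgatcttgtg
miR-100: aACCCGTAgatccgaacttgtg
The miR-146 pair differs by A18G and C21T, written from miR-146b-5p to miR-146a.
miR-146a: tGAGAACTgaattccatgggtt
miR-146b-5p: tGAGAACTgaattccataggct
miR-429 shares its seed with miR-200b and miR-200c.
miR-429: tAATACTGtctggtaatgccg
miR-200b: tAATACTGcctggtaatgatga
miR-200c: tAATACTGccgggtaatgatgga
The other called miRNAs had no partner with the same seed among the miRNAs followed.
miR-128: tCACAGTGaaccggtctcttt
miR-409-3p: gAATGTTGctcggtgaacccct
miR-671-3p: tCCGGTTCtcagggctccacc
miR-1298: tTCATTCGgctgtccagatgta

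The SOV libraries held 41224 to 55086 miRNA reads and the FOV libraries 39341, 41268 and 112146, the last being FOV_4, while FOV_1 held 62160. One read was worth 17.9 to 26.2 CPM in SOV and 9.65 to 22.6 CPM in FOV, so that miRNAs below about 100 CPM rested on a handful of reads. SOV_4 and FOV_4 stood apart from the libraries of their own season. In SOV_4, miR-148a took 25.5% of reads against 7.46% to 8.96% in the other SOV libraries, and miR-21, an abundant granulosa and theca miRNA, stood at 34455 CPM against 112470 to 170946 CPM. In FOV_4, miR-192 stood at 130169 CPM against 20405 and 34484 CPM in FOV_2 and FOV_3. Of 49 miRNAs examined for a library far from the rest of its season, 7 had SOV_4 as that library, 6 had FOV_4 and 2 had FOV_1. A list of granulosa and follicle miRNAs had a summed level of 45650 to 180370 CPM in SOV and 64500 to 67651 CPM in FOV. Most of that sum in SOV was miR-21, at 34455 to 170946 CPM, so it says little of the other members. Of the 10 members followed, 3 had fewer than 10 reads in SOV and 3 in FOV. No marker in the files separates one ovulatory season from the other, so the season labels themselves were not checked.

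FF-EVs of FOV carried a more even mix of miRNAs than those of SOV. Thinned to 39341 reads, the SOV libraries were expected to show 192, 201, 205 and 193 miRNAs, and FOV_2, FOV_3 and FOV_4 231, 230 and 218. Every FOV library was above every SOV library, with means of 198 ± 5.96 (SD, n = 4) and 226 ± 7.49 (SD, n = 3), while FOV_1, at 198, lay within SOV. Shannon entropy, which rises as reads spread over more miRNAs, was 4.24 ± 0.14 bits in SOV and 4.89 ± 0.097 bits in FOV, and 4.30 bits in FOV_1. The 20 most abundant miRNAs held 88.9 ± 0.63% of reads in SOV and 80.3 ± 2.24% in FOV, and 87.8% in FOV_1. For each of these 3 measures the seasons did not overlap, and the exact two-sided permutation test gave p = 0.0286, the smallest that the 35 splits of 7 libraries allow, with an adjusted p of 0.0286 over the 3. With FOV_1 kept, the differences were 21.6 miRNAs, 0.500 bits and -6.74 percentage points, and the adjusted p of the exact permutation test was 0.0857 for each.

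**Figure D1:**
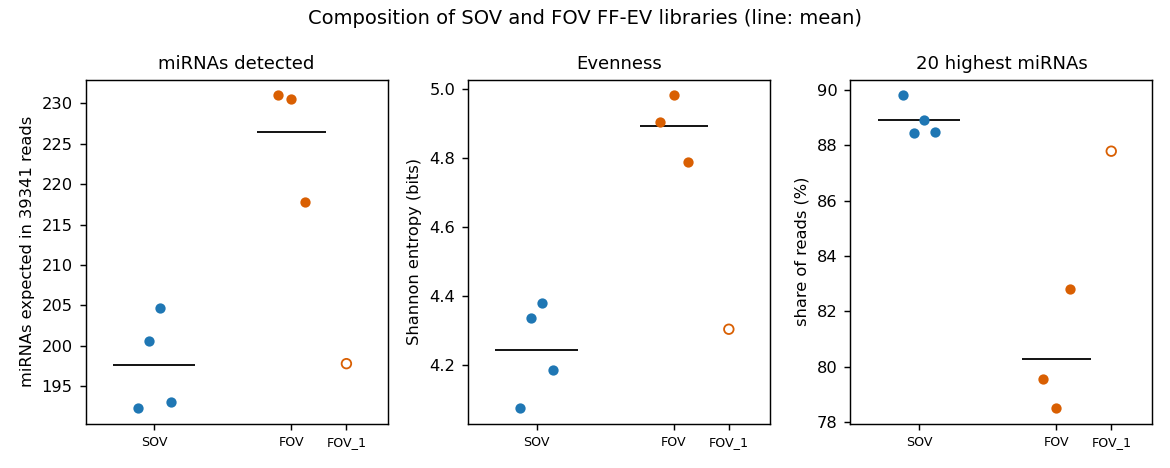
Composition of each library in SOV (blue), FOV (orange) and FOV_1 (open circle): miRNAs expected in 39341 reads, Shannon entropy in bits and the percentage of reads held by the 20 highest miRNAs, with lines at the season means. FOV_2 to FOV_4 lie outside the range of SOV in each panel, and FOV_1 lies within SOV for the first 2 measures and below it, at 87.8%, for the third.

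The largest differences in share of reads were those of a few abundant miRNAs. miR-143, typical of smooth muscle and stromal cells, held 21.5 ± 4.37% of reads in SOV and 14.0 ± 5.81% in FOV, and 24.0% in FOV_1. These shares overlapped, since SOV_4 held 16.3% and FOV_2 18.1%. The share of miR-21 was 10.9 ± 5.34% in SOV and 5.20 ± 1.31% in FOV, with overlap because of SOV_4 at 3.36%, and it was 11.9% in FOV_1, within SOV. That of miR-99a, which shares its seed with miR-100, was 13.6 ± 1.44% in SOV and 9.28 ± 0.66% in FOV without overlap, and 12.3% in FOV_1, near the lowest SOV library. The largest gains in mean share were those of miR-192, from 1.92 ± 1.67% to 6.02 ± 5.25%, and miR-100, from 1.44 ± 0.61% to 3.77 ± 1.72%. The gain of miR-192 came chiefly from FOV_4, where it held 12.0% of reads, and that of miR-100 from FOV_2 and FOV_3, at 4.73% and 4.80%. In FOV_1, miR-192 held 3.42%, within SOV, and miR-100 held 0.843%, below all SOV libraries. Because the shares of a library sum to a fixed total, the rise of one miRNA lowers the shares of others.

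Across the 282 miRNAs fitted with limma on log2(CPM + 1), 8 were called higher in FOV, which is 2.84% of those tested, and 0 lower, which is 0% of them, where a call needed an FC of at least 2 and a Benjamini-Hochberg adjusted p below 0.05. At an unadjusted p under 0.05, 59 were higher in FOV and 6 lower. edgeR's quasi-likelihood test on the recovered reads called 8, its likelihood ratio test 13 and DESeq2 22, of which 13 were higher and 9 lower in FOV. All FOV libraries lay above all SOV libraries for 38 miRNAs, which is 13.5% of those tested, and below them for 15, which is 5.32%. The median log2 FC, FOV minus SOV, of the 282 was 0.60, so that a typical miRNA had a higher value in FOV under the deposited scaling. In all, 188 of the 282 had a positive log2 FC. Scaling by the median of ratios moved this median by -0.31, TMM over the 7 libraries by -0.27 and equal totals by 0.07. The log2 FC relative to the median of 0.60 is therefore given beside each called miRNA. The first 2 of these rescalings left 3 and 1 of the 8 calls, and equal totals kept all 8 and called 12. No called miRNA changed direction. miR-409-3p, for example, kept a log2 FC of 1.74 under the median of ratios against 2.09, although its call was lost there.

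**Figure D2:**
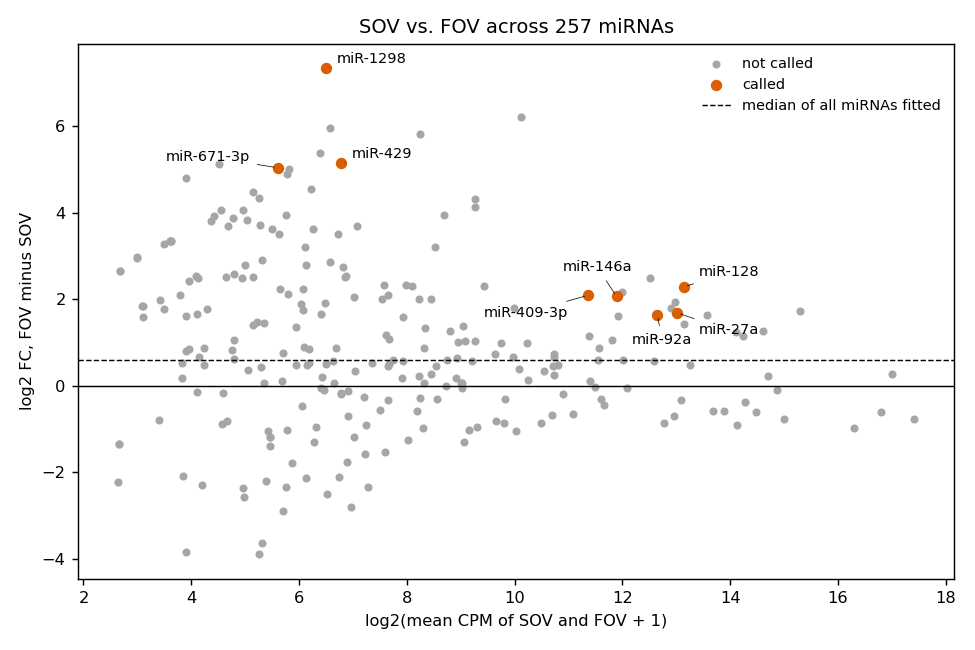
The log2 FC, FOV minus SOV, of each of the 257 miRNAs against the log2 of its mean CPM over both seasons plus 1, with the 8 called miRNAs named in orange. The dashed line marks the median of the 282 miRNAs fitted, at 0.60, and the calls fall into a group of 5 abundant miRNAs, above 1000 CPM, and 3 low ones.

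5 of the 8 called miRNAs were abundant, with means above 1000 CPM over both seasons. miR-92a, a member of the miR-17 to miR-92 cluster that promotes proliferation, stood at 2696, 3653, 2949 and 3016 CPM in SOV and at 7564, 9285 and 12362 CPM in FOV. The seasons did not overlap, and the change was a log2 FC of 1.64 (SE 0.30, limma adjusted p = 0.0085), or 1.04 relative to the median. FOV_1, at 3983 CPM, was above all SOV libraries but below the other FOV libraries. miR-128, best known from neurons and also expressed elsewhere, stood at 1492, 4100, 4258 and 2783 CPM in SOV and 10848, 12253 and 21722 CPM in FOV. Its log2 FC was 2.29 (SE 0.45, limma adjusted p = 0.0085), or 1.69 relative to the median, and FOV_1 stood at 5006 CPM. These were the most stable calls: each held in 14 of 15 other settings, the exception being TMM over 7 libraries, where the adjusted p was 0.0597, and in all 15 refits that left out 1 library.

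miR-27a, which is transcribed with miR-23a and miR-24 and targets regulators of lipid and steroid metabolism, was tightly grouped in SOV at 3822, 3742, 3219 and 3293 CPM. In FOV it stood at 8561, 7276 and 23122 CPM, and at 9007 CPM in FOV_1, all above SOV. Its log2 FC was 1.69 (SE 0.39, limma adjusted p = 0.0188), or 1.08 relative to the median. The call was lost without FOV_4, under the median of ratios and with TMM over the 7 libraries. miR-409-3p, encoded in the imprinted DLK1-DIO3 region, stood at 471, 1164, 1246 and 743 CPM in SOV and 2197, 2567 and 8309 CPM in FOV. Every FOV library was above SOV, FOV_1 included at 3636 CPM, with a log2 FC of 2.09 (SE 0.45, limma adjusted p = 0.0121), or 1.49 relative to the median. This call too was lost without FOV_4 and under both of those scalings, and also with SOV and FOV fitted alone. miR-146a, a feedback inhibitor of inflammatory signaling, stood at 1309, 985, 810 and 3696 CPM in SOV and 6273, 5200 and 6205 CPM in FOV. The highest SOV value was that of SOV_4, the FOV libraries were close together, and FOV_1 lay within SOV at 2795 CPM. Its log2 FC was 2.07 (SE 0.45, limma adjusted p = 0.0121), or 1.46 relative to the median. The call held without each library in turn, but not under the median of ratios, with TMM over the 7 libraries or in edgeR's quasi-likelihood test.

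The other 3 called miRNAs rested on few reads. miR-1298 had 0 reads in all SOV libraries, in SAN and in FOV_1, and 8, 12 and 9 reads in FOV_2, FOV_3 and FOV_4, which are 181, 268 and 86.9 CPM. Its FOV mean of 179 CPM was 11.1 times the 16.1 CPM that 3 reads over the SOV libraries would give (limma adjusted p = 0.0085). That figure leaves out the counting error and the spread within FOV, so it is not a lower bound. Its fitted log2 FC, 7.35 or 6.74 relative to the median, depends on the pseudocount. The call held without each library in turn and was lost with FOV_1 kept, where the seasons overlapped, and DESeq2 gave no adjusted p for these 3 miRNAs. miR-429, an epithelial miRNA whose loss in mice impairs the pituitary control of ovulation, had 0, 0, 2 and 1 reads in SOV and 6, 11 and 23 in FOV. That is a pooled rate 13.1-fold higher in FOV, with a 95% counting interval of 4.17 to 66.2 that covers counting error only (limma log2 FC 5.14, or 4.54 relative to the median, SE 1.31, adjusted p = 0.0408). miR-671-3p had reads in SOV_4 alone, 2 of them, and 4, 3 and 10 in FOV, a ratio of 8.35 with an interval of 1.98 to 74.5 (limma log2 FC 5.04, or 4.44 relative to the median, SE 1.32, adjusted p = 0.0443). The log2 FC of miR-429 and miR-671-3p in edgeR, which models the reads, was smaller, at 3.38 and 2.68. FOV_1 was above all SOV libraries for both, at 73.1 and 54.8 CPM. The call of miR-429 held in 5 and that of miR-671-3p in 3 of the 15 refits without 1 library, so both are marginal.

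**Figure D3:**
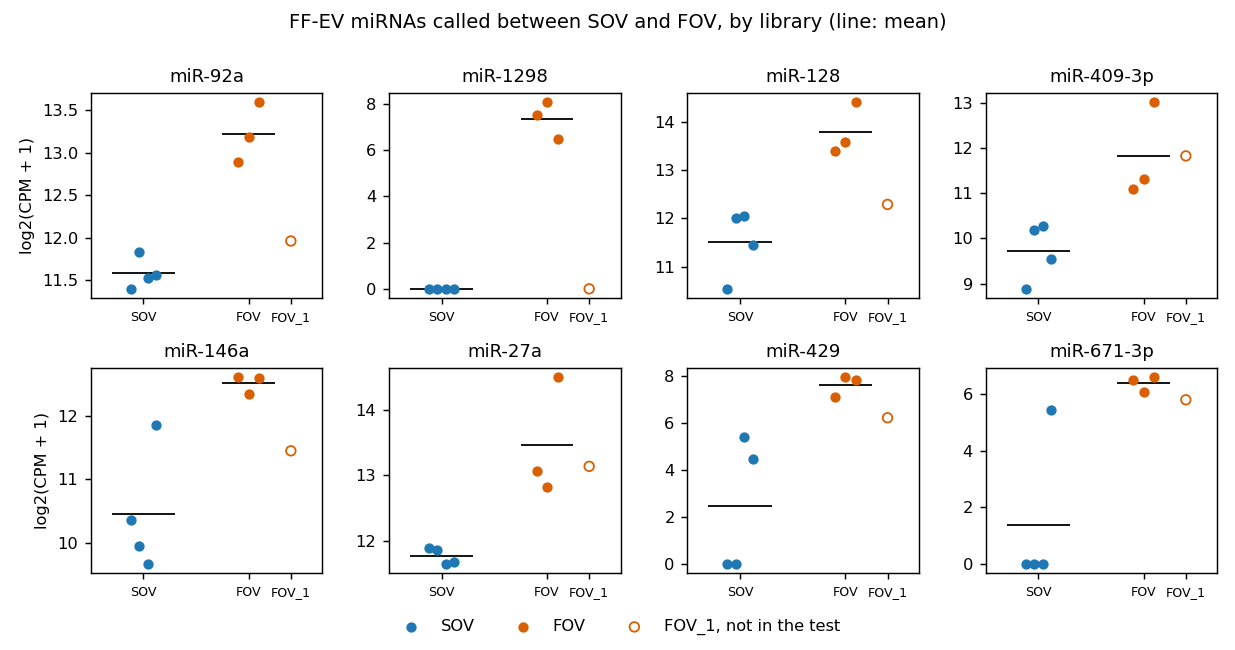
Level of each called miRNA by library, as log2(CPM + 1), in SOV (blue), FOV (orange) and FOV_1 (open circle, not in the test), with lines at the season means. No FOV library overlaps SOV, and FOV_1 lies above SOV for 6 of the 8, within it for miR-146a and at 0 for miR-1298.

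The other seasons placed these levels along the year, with means given as a description because the seasons share the model. In the order SAN, SOV, summer ovulatory season (SUM) and FOV, miR-128 averaged 8150, 3158, 19253 and 14941 CPM. miR-92a averaged 4999, 3079, 8690 and 9737 CPM, and miR-27a averaged 3924, 3519, 9432 and 12986 CPM. SOV thus had the lowest mean of the 4 seasons for all 3 of these. miR-1298 averaged 18.3 CPM in SUM and 179 in FOV, and miR-146a averaged 1742, 1700, 3514 and 5893 CPM in that order.

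miRNAs that share a seed can be compared as a ratio within each library, which does not depend on how the library was scaled, apart from the pseudocount. Among the miRNAs followed at 500 CPM or more, 37 such pairs, formed by 36 miRNAs of 14 seeds, were fitted with limma, and 2 of them, which is 5.41%, had an adjusted p under 0.05. The ratio of miR-27a to miR-27b was 0.133, 0.161, 0.136 and 0.221 in SOV and 0.451, 0.465 and 1.40 in FOV. It was 4.18-fold higher in FOV (log2 change 2.06, SE 0.39, limma adjusted p = 0.0035), and FOV_1, at 0.306, was also above SOV. miR-27b itself averaged 22680 ± 5756 CPM in SOV and 17055 ± 1725 CPM in FOV, with overlap (log2 FC -0.38, limma adjusted p = 0.445). miR-27a and miR-27b come from different host transcripts and differ at a single base near the 3′ end, so that a read with an error or a trimmed end there could be assigned to the wrong one. The change held in every setting run, with FOV_1 kept too (log2 change 1.78, limma adjusted p = 0.0132).

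The ratio of miR-100 to miR-99a was 0.0957, 0.0734, 0.0881 and 0.163 in SOV and 0.477, 0.515 and 0.208 in FOV. The seasons did not overlap, although FOV_4 and SOV_4 were near each other, and the log2 change was 1.89 (SE 0.46, limma adjusted p = 0.0193). This was less stable than the miR-27 ratio: FOV_1, at 0.0687, was below all SOV libraries, and with FOV_1 kept the log2 change was 1.28 (limma adjusted p = 0.287). The adjusted p also passed 0.05 without FOV_2 (0.128), FOV_3 (0.0955), SOV_1 (0.0532), SOV_2 (0.0762) or SOV_3 (0.0610). miR-100 stood at 10302 to 24174 CPM in SOV and at 42124, 44215 and 19358 CPM in FOV, and miR-99a at 116978 to 149869 CPM in SOV and 88393, 85841 and 93036 CPM in FOV. Neither was called on its own (limma adjusted p = 0.0606 and 0.303). The miR-146 pair, whose members come from different genes, had a ratio of miR-146a to miR-146b-5p of 0.351 to 0.695 in SOV and 1.21, 1.0 and 2.34 in FOV (limma adjusted p = 0.0557, over the threshold), with 2.04 in FOV_1. miR-146b-5p averaged 3942 CPM in SOV, where SOV_4 stood at 10536 CPM, and 4339 CPM in FOV, a log2 FC of 0.60 that was -0.17 in DESeq2.

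**Figure D4:**
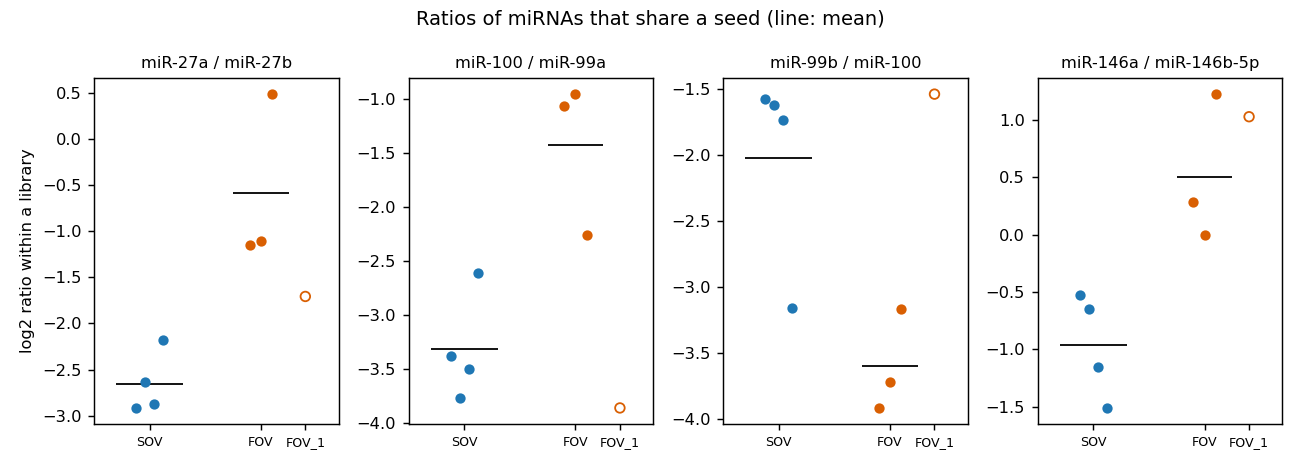
The log2 ratio of 2 miRNAs with the same seed within each library, in SOV (blue), FOV (orange) and FOV_1 (open circle), with lines at the season means. The ratios of miR-27a to miR-27b and of miR-100 to miR-99a passed the test, those of miR-99b to miR-100 and miR-146a to miR-146b-5p did not (both with a limma adjusted p of 0.0557), and FOV_1 lies with FOV for the miR-146 pair and away from it for the pairs of miR-100.

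The other miRNAs with the seed of miR-92a also had higher means in FOV, although limma called none of them. miR-25, from the miR-106b cluster, stood at 1361 to 1791 CPM in SOV and 2355, 2924 and 6080 CPM in FOV, without overlap (log2 FC 1.16, SE 0.46, limma adjusted p = 0.157). miR-363, which in humans belongs to the X-linked miR-106a cluster, had 4, 1, 1 and 12 reads in SOV and 67, 59 and 55 in FOV, or 99.6 ± 111 and 1122 ± 521 CPM, with a log2 FC of 4.14 (SE 1.24, limma adjusted p = 0.0689), and 0 reads in FOV_1. It was called by DESeq2, by edgeR's likelihood ratio test and by limma with SOV and FOV fitted alone. miR-92b averaged 373 ± 169 CPM in SOV and 704 ± 165 CPM in FOV, with overlap. miR-32 averaged 36.0 and 44.0 CPM from at most 4 reads a library, a log2 FC of 1.46 that was -0.079 in DESeq2. With miR-92a, all 5 members had a positive log2 FC, against 188 of 282 over all miRNAs fitted. 1 was called by limma and 3 lay above SOV without overlap, beside 2.84% and 13.5% of all. The median was 1.46, the value of miR-32 with its few reads, beside 0.60. It was 1.15 in edgeR's quasi-likelihood test and 0.94 in DESeq2, beside 0.34 and 0.13 over all, and 4 of the 5 were positive in DESeq2.

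miR-24, which is made from the same transcripts as miR-27a and miR-27b, followed miR-27a, with 5628, 5909, 5753 and 3909 CPM in SOV and 10667, 11941 and 34007 CPM in FOV. The seasons did not overlap, FOV_1 was above SOV at 13100 CPM, and the limma adjusted p was 0.06 for a log2 FC of 1.64 (SE 0.46). It passed the threshold with FOV_1 kept, with equal totals, in edgeR's likelihood ratio test and in DESeq2. Over the 5 members of both clusters that hold miR-23, miR-24 and miR-27, 3 had a positive log2 FC, 1 was called and the median was 0.13. Over all miRNAs fitted, 188 of 282 were positive, 2.84% were called higher and the median was 0.60. The 0.13 was the log2 FC of miR-23a, which is transcribed with miR-27a and miR-24 but did not follow them. miR-23b had a negative log2 FC, as miR-27b did, and DESeq2 called miR-23b lower in FOV. The median of the 5 was -0.23 under median-of-ratios scaling, -0.20 under TMM over 7 libraries, -0.24 in DESeq2 and -0.01 in edgeR.

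In the miR-200 family, which maintains epithelial identity and is needed for ovulation in mice, all 5 members had a positive log2 FC under each of 4 scalings, with a median of 2.31 beside 0.60 over all miRNAs fitted, and 1, miR-429, was called, beside 2.84% of all. miR-200a stood at 209, 430, 41.5 and 234 CPM in SOV and 838, 335 and 2268 CPM in FOV, with overlap (log2 FC 2.31, SE 0.84, limma adjusted p = 0.140). miR-141 had 2 reads in all of SOV and 12 in FOV, a ratio of 5.90 with a counting interval of 1.31 to 54.2 (limma adjusted p = 0.145). The more abundant members differed least: miR-200b averaged 809 ± 412 CPM in SOV and 1185 ± 317 CPM in FOV, and miR-200c 622 ± 270 and 965 ± 236 CPM.

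The DLK1-DIO3 region is an imprinted locus that expresses a large group of miRNAs from the maternal chromosome, many of them in the ovary, placenta and brain. Of its 55 miRNAs listed, 40 were followed. Those above 10 CPM in FOV alone could hardly have a negative log2 FC, so the group is described by the 33 above that level in both seasons. Of these, 30 had a positive log2 FC, beside 148 of 220 for all miRNAs above the level in both seasons. 6 lay above SOV without overlap and 0 below, beside 35 and 15 of the 220. Over all 282 miRNAs fitted, 38 lay above (13.5%) and 15 below (5.32%). 1 was called, beside 7 of the 220 and close to the 2.84% of all. The median log2 FC was 1.75, beside 0.58 for the 220. Over all 40, which include those above the level in FOV alone, the median was 1.90 with 37 positive. It was 1.11 in edgeR's quasi-likelihood test and 1.01 in DESeq2, each with 34 positive, beside 0.34 and 0.13 over all miRNAs fitted. The summed level of the 55 was 5655 to 10278 CPM in SOV and 12789 to 27560 CPM in FOV, and 14123 CPM in FOV_1, above SOV. After miR-409-3p, the lowest adjusted p was that of miR-495, with 2, 3, 5 and 6 reads in SOV and 19, 11 and 61 in FOV, or 84.3 ± 37.4 and 422 ± 172 CPM (log2 FC 2.33, SE 0.64, limma adjusted p = 0.06), and it was called by DESeq2 and by edgeR's likelihood ratio test. FOV_1 was above SOV for miR-495 at 457 CPM. miR-3958 had 0, 2, 7 and 0 reads in SOV and 15, 15 and 103 in FOV, a log2 FC of 5.82 (SE 1.70, limma adjusted p = 0.0616), and DESeq2 and both edgeR tests called it. miR-494 averaged 173 ± 122 CPM in SOV and 561 ± 198 CPM in FOV, and miR-382 averaged 97.6 ± 77.6 and 449 ± 332 CPM, neither with overlap. miR-127, the most studied ovarian member of the region, overlapped between seasons at 2457 ± 1075 and 3502 ± 919 CPM (log2 FC 0.58, limma adjusted p = 0.380). The members were thus uneven, with the larger log2 FC among those of few reads.

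A negative log2 FC was found for 81 of the 257 miRNAs, 22 of them above 1000 CPM, and limma called 0 of them, while DESeq2 called 9. The most abundant are described first. miR-143 stood at 289954, 204141, 210111 and 166797 CPM in SOV and 161409, 152331 and 79700 CPM in FOV, without overlap in CPM (log2 FC -0.77, 95% interval -1.59 to 0.05, limma adjusted p = 0.238). FOV_1, at 272479 CPM, lay within SOV. miR-26a, an inhibitor of proliferation, stood at 36452 to 44608 CPM in SOV and 27245, 30444 and 15797 CPM in FOV (log2 FC -0.78, SE 0.32, limma adjusted p = 0.168), and DESeq2 called it lower. miR-145, made from the transcript of miR-143, averaged 3653 ± 770 CPM in SOV and 2820 ± 1172 CPM in FOV, with overlap.

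let-7f, of the let-7 family that restrains proliferation and marks differentiated cells, had the lowest adjusted p among the abundant miRNAs lower in FOV. It stood at 25707, 19463, 20832 and 26022 CPM in SOV and 14721, 15512 and 7874 CPM in FOV, a log2 FC of -0.91 (SE 0.30, limma adjusted p = 0.0976), or -1.51 relative to the median. It was called lower in 2 of 15 other settings, TMM over 7 libraries and DESeq2. let-7g stood at 24239 to 31078 CPM in SOV and 18594, 21628 and 14041 CPM in FOV. In the family of 7, 6 had a negative log2 FC, 4 lay below SOV without overlap, beside 5.32% of all miRNAs fitted, and the median was -0.59. FOV_1 had a summed level of 81101 CPM, inside the 79912 to 90840 CPM of SOV and above the 44429 to 64615 CPM of FOV.

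Other miRNAs without overlap and with FOV below included miR-199a-3p, a stromal miRNA, at 8970 ± 1504 CPM in SOV and 4942 ± 1174 CPM in FOV. All 4 members of the miR-199 and miR-214 list had a negative log2 FC, beside 94 of the 282 fitted, with a median of -0.77. limma called 0 of them, as it called 0 of the 282 lower. DESeq2 called miR-199a-3p lower in FOV, and also miR-28-3p, miR-186, miR-148b-3p and miR-195. miR-28-3p averaged 1145 ± 212 CPM in SOV and 641 ± 215 CPM in FOV, with FOV_1 below SOV at 840 CPM, and miR-186 averaged 766 ± 242 and 375 ± 103 CPM, with FOV_1 below SOV at 420 CPM. miR-199b-5p averaged 1383 ± 215 CPM in SOV and 690.5 ± 214 CPM in FOV. miR-148b-3p stood at 1558 to 3526 CPM in SOV, the highest being SOV_4, and at 1132 to 1399 CPM in FOV. miR-374b averaged 255 ± 115 CPM in SOV and 51.4 ± 27.8 CPM in FOV. miR-335 averaged 400 ± 428 and 120 ± 26.7 CPM, and its SOV mean was raised by SOV_4 at 1041 CPM. In the miR-15 and miR-16 family, which restrains the cell cycle, 2 of 6 members had a positive log2 FC, beside 188 of the 282 fitted. The median was -1.16, beside 0.60 over all. It was -0.79 in edgeR's quasi-likelihood test and -1.04 in DESeq2, beside 0.34 and 0.13. Of the 6, 1 had fewer than 10 reads in SOV and 3 in FOV. miR-195 averaged 742 ± 301 CPM in SOV and 319 ± 184 CPM in FOV, with overlap.

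**Figure D5:**
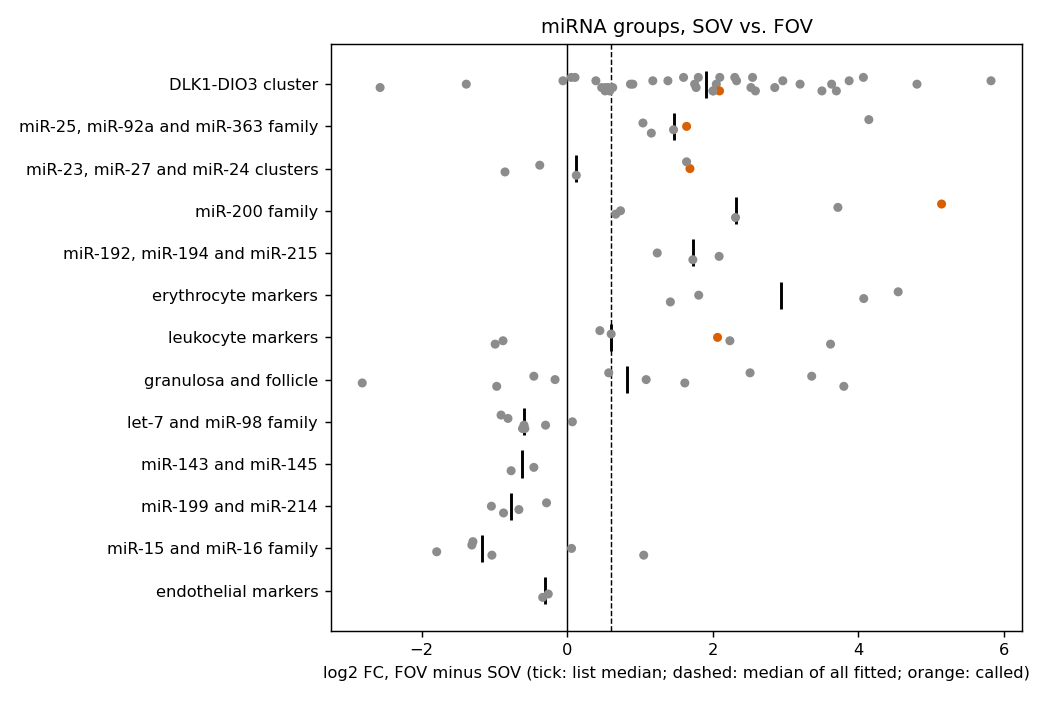
The log2 FC, FOV minus SOV, of the members of each miRNA group (points, orange where called), with a tick at the median of the group and a dashed line at 0.60, the median of all 282 miRNAs fitted. Groups are drawn with all members followed, including those above 10 CPM in FOV alone, which could hardly have a negative log2 FC. The DLK1-DIO3 group (median 1.90, or 1.75 over the 33 above the level in both seasons) and the miR-200 family (2.31) lie to the right of the line. The let-7 family (-0.59) lies to its left.

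Markers of cells other than follicular ones were also read in both seasons. miR-451, miR-144 and the miR-486 arms, the erythrocyte markers, had a summed level of 6979 to 13447 CPM in SOV and 19339 to 29105 CPM in FOV, and 8477 CPM in FOV_1. All 4 had a positive log2 FC, beside 188 of 282 over all miRNAs fitted, and limma called none, beside 2.84% of all. The median was 2.94, beside 0.60 over all, and it was 1.61 in edgeR's quasi-likelihood test and 1.46 in DESeq2, beside 0.34 and 0.13 over all. The larger changes were those of few reads: miR-144 had 2 in SOV and 8 in FOV, and miR-486-3p 3 and 25. The counting interval of the miR-144 ratio was 0.78 to 38.0. The log2 FC of the abundant miR-451 and miR-486-5p was 1.42 and 1.81. miR-451 stood at 2202 to 11407 CPM in SOV, the highest being SOV_4, and 14947, 17432 and 5722 CPM in FOV, and miR-486-5p at 1754 to 6410 CPM in SOV and 9376, 11495 and 13462 CPM in FOV. The leukocyte markers summed to 2757 to 15103 CPM in SOV and 9322 to 11981 CPM in FOV, and miR-223, the myeloid marker, had at most 8 reads in a library. Of the 7, 5 were positive and 1 was called (miR-146a, which is in this list), beside 188 of 282 and 2.84% of all miRNAs fitted. Their median of 0.60 was that of all. miR-122, a miRNA made almost wholly by the liver, stood at 628, 1039, 602 and 4100 CPM in SOV and 1200, 14664 and 14456 CPM in FOV, with overlap (log2 FC 2.49, SE 0.73, limma adjusted p = 0.0616). FOV_1 stood at 3892 CPM, within SOV. miR-122 was called with equal totals, by DESeq2 and by both edgeR tests. The endothelial markers, both arms of miR-126, summed to 8858 to 11807 CPM in SOV and 4564 to 10101 CPM in FOV. miR-92a and miR-25 are themselves abundant in red blood cells. The part of blood in the calls was not tested, and in such mixed fluids a change in the number of vesicles of a source and a change in their cargo cannot be told apart.

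miR-192 and miR-215, which share a seed and are typical of intestinal and kidney epithelium, varied more within seasons than between them. miR-192 stood at 6518, 24978, 38009 and 5566 CPM in SOV and 20405, 34484 and 130169 CPM in FOV (log2 FC 1.73, SE 0.65, limma adjusted p = 0.145). miR-215 stood at 3613, 15775, 24779 and 2145 CPM in SOV and 8380, 12811 and 49842 CPM in FOV. Both were highest in FOV_4 and lower in SOV_1 and SOV_4 than in SOV_2 and SOV_3.

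3 miRNAs were instead high in FOV_2 and FOV_3 and lower in FOV_4. miR-218, a miRNA of neurons and stroma, stood at 1056 to 1614 CPM in SOV and 8448, 8548 and 3329 CPM in FOV, without overlap, while FOV_1 lay within SOV at 1498 CPM (log2 FC 2.17, SE 1.29, limma adjusted p = 0.300). It was called when SOV and FOV were fitted without the other seasons. miR-130b had 0, 1, 1 and 40 reads in SOV, the 40 in SOV_4, and 106, 120 and 97 in FOV, but 0 in FOV_1. miR-363 and the ratio of miR-100 to miR-99a were likewise lowest in FOV_4 among these 3 libraries. miR-1388 was again highest in FOV_4, at 1592 CPM against 861 and 714 CPM in FOV_2 and FOV_3 and 0 to 376 CPM in SOV (log2 FC 4.31, SE 1.33, limma adjusted p = 0.0732), and it was called by DESeq2 and by edgeR's likelihood ratio test.

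Of the miRNAs followed, 20 had no read in SOV and 4 had none in FOV. All but miR-1298 had 10 or fewer reads in the other season, and 9 of the 24 did not exceed the level that 3 reads would give in the season without reads. 3 reads over a season would give 16.1 CPM in SOV and 18.2 CPM in FOV. After miR-1298, the highest was miR-302c at 74.6 CPM in FOV, from 2 and 8 reads in FOV_2 and FOV_3. That mean was 4.62 times the SOV level of 3 reads, without allowance for the spread in FOV. miR-302c belongs to a cluster known from pluripotent cells, whose other members were also read mainly in FOV_3. miR-302b had 2 reads in SOV, both in SOV_4, and 4, 15 and 4 in FOV, a ratio of 11.3 with a counting interval of 2.79 to 98.9 (limma adjusted p = 0.0732). miR-302d had 1 and 2 reads in FOV_2 and FOV_3 and miR-302a 2 in FOV_3, and FOV_1 had 0 reads of all 4.

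FOV_1 shared part of the difference. Of the 38 miRNAs with FOV_2 to FOV_4 above SOV, FOV_1 was above SOV for 24, within it for 12 and below it for 2. Of the 15 with FOV below SOV, it was below SOV for 5 and within it for 10. With FOV_1 kept, limma called 11 miRNAs, 7 of them among the 8, with miR-1298 lost and miR-24, miR-326, miR-3958 and miR-495 gained.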

How the data were processed

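FF-EV small RNA of 16 libraries, 4 per season, was sequenced by the authors from TruSeq libraries. The deposited values are a TMM-adjusted CPM signal, for which the study's methods give CLC Genomics Workbench 21, with reads trimmed (quality 30, at most 2 ambiguous bases, length of at least 15), annotated with miRBase 22 and EquCab 3.0 and divided by a scaled library size. The submitters' processing notes instead name bcl2fastq, Bowtie2 2.2.2 and DESeq2, and which of these applied was not settled. Each library's values were whole multiples of 1 step, and 100% of values gave whole reads within 1e-06 of a read. These reads served the edgeR and DESeq2 alternatives. No 2 of the 8 SOV and FOV libraries were copies: chi-square per degree of freedom was at least 8.62. No column was without a sample.

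limma 3.58.1 in R 4.3.3 fitted log2(CPM + 1) of the 282 miRNAs whose mean passed 10 CPM in 1 or more seasons, with an intensity trend, in 15 libraries of 4 seasons without FOV_1. p values are two-sided and adjusted by Benjamini-Hochberg over the 282. Fold changes are on the log2(CPM + 1) scale, where 1 read was worth 9.65 CPM or more, so that libraries at 0 widened those of miRNAs with few reads, and the depth of 39341 to 112146 reads limits their precision. Since mares recur and the fluids were combined, p values measure the spread between these libraries. The ratios of seed-sharing pairs and the 3 measures of composition were tested separately, the latter by an exact permutation test. Alternatives used edgeR 4.0.16, DESeq2 1.42.0, other scalings, filters and pseudocounts, a replicate block, FOV_1 kept and each library left out. The limma fit and its calling rule were tried on simulated counts, and the other steps were not. Python 3.11.15 with matplotlib 3.10.9 drew the figures. The miRNAs named were those called, the most abundant, members of seed families and of lists of clusters and cell markers, and miRNAs with 0 reads in a season. Those of largest fold in each direction, among miRNAs above 100 CPM without overlap of the seasons, were named too. The members and lists were chosen with earlier results of these data known.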

Additional observations from a re-analysis of the deposited data

Results flagged for a closer look

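15 values lay far from the other libraries of their season, of 104 sets of 4 libraries examined, and chance alone marks about 1 in 20 such sets. 7 were in SOV_4: miR-671-3p at 42.5 CPM, miR-24 at 3909 CPM, miR-146b-5p at 10536 CPM, miR-130b at 850 CPM, miR-148b-3p at 3526 CPM, miR-335 at 1041 CPM and miR-122 at 4100 CPM, all above the other SOV libraries but miR-24, which was below. 6 were in FOV_4, each above the other FOV libraries including FOV_1: miR-27a at 23122 CPM, miR-25 at 6080 CPM, miR-24 at 34007 CPM, miR-3958 at 994 CPM, miR-192 at 130169 CPM and miR-215 at 49842 CPM. In FOV_1, miR-99a at 139400 CPM and miR-21 at 135253 CPM were far above FOV_2 to FOV_4 and within the range of SOV. Without SOV_4 the number of miRNAs called higher in FOV was 16 against 8.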

How the results depend on the processing

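The number called higher in FOV, 8 as reported, was 13 with a pseudocount of 5 CPM, 3 with median-of-ratios scaling, 1 with TMM over 7 libraries, 13 in edgeR's likelihood ratio test and 13 in DESeq2, and 6 to 16 when 1 library was left out, 16 being without SOV_4. The number called lower, 0, was 1 with TMM over 7 libraries and 9 in DESeq2, and 0 to 1 with 1 library left out, the 1 being without FOV_4. The seed-sharing ratios, 2 called, were 6 with SOV and FOV fitted alone, 1 with the replicate block and 1 to 7 with 1 library left out, 7 being without SOV_4. For composition, keeping FOV_1 gave 21.6 miRNAs, 0.500 bits and -6.74 points, and leaving out 1 library gave 26.5 to 33.1 miRNAs, 0.590 to 0.698 bits and -9.87 to -7.72 points, with too few libraries left for an exact p under 0.05.

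Whether the replicate numbers pair the libraries is not known, since the mares of each library are not given. The deviations of same-numbered libraries correlated at -0.018, -0.020 and -0.125. Those of other pairs ran from -0.145 to 0.150, so with so few libraries the correlations cannot decide it. With the replicate block 6 miRNAs were called, miR-429 and miR-671-3p being lost. Of 68 miRNAs that the naming rule gave, 12 changed sign in at least 1 setting, 0 of them called. Among those with a printed log2 FC these were miR-32 at -0.079 and miR-146b-5p at -0.17 in DESeq2. The causes were not tested. miRNAs of fewer than 10 reads in SOV, 96 of the 257, are limited by depth.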
